A study of Rattus norvegicus with 6 samples.

Results

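The genes described here build, cross-link, cut or bind the extracellular matrix, or mark the fibroblasts that make most of it in the heart. They were taken by gene symbol alone, from a table of 1756 genes, as all collagen chains, lysyl oxidases, lysyl and prolyl hydroxylases, ADAM and matrix metalloprotease genes, TIMPs, integrins, laminins, fibulins, fibrillins, thrombospondins, tenascin C, serpins and SPARC genes, together with Fn1, Lum, Dcn, Bgn, Postn, Eln, Ddr2, Tcf21 and Vim. This gave 42 genes of the 1756: 11 collagen chains, 7 cross-linking or hydroxylating enzymes, 3 genes of the ADAM families, 4 protease inhibitors, 7 integrin genes, 3 laminin chains, 4 elastic or matricellular proteins and 3 fibroblast or mesenchymal genes. The table comes from neonatal rat ventricular cardiomyocytes (NRVCs), heart muscle cells of Harlan Sprague–Dawley rats of 2 to 3 days of age, plated at 100000 cells per well. The ARVs group received a cocktail of the antiretroviral drugs Ritonavir, Abacavir, Atazanavir and Lamivudine at 5 µM for 24 h, and the DMSO group received the vehicle for 24 h, with 3 RNA sequencing libraries per group. Ritonavir, like Atazanavir, blocks the protease of HIV, and Abacavir and Lamivudine block its reverse transcriptase as nucleoside analogues. The drugs were given together, so no value here can be assigned to a single drug. Cultures of this kind can hold fibroblasts and other ventricular cells beside the myocytes, and in bulk RNA fewer cells of a type and less RNA per cell cannot be told apart.

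Collagens are secreted as triple helices whose prolines and lysines are hydroxylated in the endoplasmic reticulum. Outside the cell, lysyl oxidases oxidize lysines of collagen and elastin and so start the covalent cross-links that stiffen a fibre. Fibronectin, laminins and collagens are held by integrins, receptors of 1 alpha and 1 beta chain that tie the matrix to the cytoskeleton. In the heart, fibroblasts make most of the fibrillar collagen, and myocytes are wrapped in a basement membrane of collagen IV and laminin.

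The table lists only genes that the authors had called between these same 6 libraries, so a test on it gives the size and spread of a change and is not independent evidence that a gene changed. Values are read counts brought to a common scale with the size factors that the authors used, called normalized counts below, and were tested on the counts with edgeR's quasi-likelihood test, with Benjamini-Hochberg adjustment over the 1751 genes that passed a filter on low counts. All 42 genes passed this filter. The libraries held 17347680 to 22126119 counts by their FPKM values. Replicate pairs differed by a chi-square of 4.85 to 6.45 per degree of freedom among ARVs libraries and 5.55 between DMSO replicates 1 and 3, but by 29.4 and 32 where DMSO replicate 2 was 1 of the pair. Separate cell preparations for the libraries of a group are not stated, so p-values reflect how far these libraries spread, which may be technical.

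The promoter windows of 4 genes, described further below, are shown in pairs. The genes are Plod1 and Plod2, the lysyl hydroxylases that were low in DMSO replicate 2, and the collagen IV pair Col4a1 and Col4a2. The start sites of this pair are neighbours in build GRCr8. The windows are RefSeq sequence of build GRCr8, 250 bases before to 50 after the annotated start, read 5′ to 3′ on the gene's strand, at chr5:163650688-163650987 (minus strand), chr8:101964068-101964367 (plus), chr16:84885347-84885646 (plus) and chr16:84885471-84885770 (minus). In the first pair, capitals mark ACGTG or GCGTG on either strand, the core letters bound by hypoxia-inducible factors, of which ACGTG also lies within the E-box CACGTG. In the second pair, capitals mark the 176 bases that both windows share, read on opposite strands.
Plod1: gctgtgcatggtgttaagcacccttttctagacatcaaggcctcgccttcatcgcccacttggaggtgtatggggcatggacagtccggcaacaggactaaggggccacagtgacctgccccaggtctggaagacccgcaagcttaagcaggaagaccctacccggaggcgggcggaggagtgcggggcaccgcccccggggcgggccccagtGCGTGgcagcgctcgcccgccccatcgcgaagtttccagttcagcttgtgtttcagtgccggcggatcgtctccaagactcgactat
Plod2: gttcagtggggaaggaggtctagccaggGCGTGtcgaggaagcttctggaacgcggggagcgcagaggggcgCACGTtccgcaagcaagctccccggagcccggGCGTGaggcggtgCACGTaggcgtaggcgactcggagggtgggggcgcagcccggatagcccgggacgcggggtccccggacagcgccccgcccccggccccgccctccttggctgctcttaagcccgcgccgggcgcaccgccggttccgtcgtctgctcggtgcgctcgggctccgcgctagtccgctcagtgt
Col4a1: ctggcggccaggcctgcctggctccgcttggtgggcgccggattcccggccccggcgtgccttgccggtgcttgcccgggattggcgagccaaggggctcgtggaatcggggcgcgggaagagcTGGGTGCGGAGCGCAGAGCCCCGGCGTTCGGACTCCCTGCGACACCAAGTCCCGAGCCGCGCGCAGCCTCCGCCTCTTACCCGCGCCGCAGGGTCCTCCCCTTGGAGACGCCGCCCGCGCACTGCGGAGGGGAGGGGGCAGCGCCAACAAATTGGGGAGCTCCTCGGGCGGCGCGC
Col4a2: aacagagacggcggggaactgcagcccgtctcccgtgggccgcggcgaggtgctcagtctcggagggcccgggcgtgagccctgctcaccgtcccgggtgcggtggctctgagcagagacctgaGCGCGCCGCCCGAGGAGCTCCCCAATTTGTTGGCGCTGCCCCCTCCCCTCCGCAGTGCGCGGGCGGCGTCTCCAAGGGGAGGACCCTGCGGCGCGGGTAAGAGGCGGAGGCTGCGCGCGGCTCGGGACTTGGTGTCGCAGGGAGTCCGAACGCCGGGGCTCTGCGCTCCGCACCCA
Plod2 held 4 matches and Plod1 held 1. Windows were found for 28 of the 42 genes. Of these genes 13 (46.4%) held at least 1 match, against 41.6% of the 33469 rat promoter windows of the same length. The first share counts genes, of which 1 had 2 windows and counted if either held a match. The second share counts windows. By direction, 4 of the 6 higher and 9 of the 22 lower genes with a window held a match. A match is a stretch of letters and not evidence of binding.

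With ARVs, 11 of the 42 genes were higher and 31 were lower at an adjusted p of 0.05. Over all genes tested, 39.9% were higher and 60.1% were lower, 100% in either direction together, so passing the test says nothing particular of these genes. The 31 lower genes were 73.8% of the 42, and the median log2 fold change was -0.26, against -0.25 over all genes tested. The changes were small: log2 fold changes lay between -1.06 (Lox) and 0.77 (Adam23). Past 1.5-fold, 1 gene was higher (Adam23) and 7 were lower, among them Lox, Col8a2, Itgbl1, Itga11, Plod2 and Col7a1. That is 7 of 42 lower, where 22.1% of all genes tested were, and 1 of 42 higher, where 5.88% were. In 41 of the 42 genes no ARVs library overlapped a DMSO library, 11 higher and 30 lower, against 39.3% higher, 56.8% lower and 96.1% in all over the genes tested, and the exception was Lamc1.
The higher genes included Adam23, Itgb3, Adam15, Tcf21, Fn1, Loxl3, Col5a3, Serpinb6a, Ddr2 and Vim. They came from 7 of the 8 groups, so most groups held genes of both directions, while the laminins were all lower and the 3 fibroblast and mesenchymal genes were all higher.
Scaling moves these calls. Median-ratio factors computed on the listed genes, which take the typical listed gene as unchanged, raised the log2 fold changes by a median of 0.20, and TMM over the listed genes by 0.10. With TMM 11 genes were higher, 23 lower and 8 did not pass, where 39.9% of all genes tested were higher and 50.4% lower. With median-ratio factors 11 were higher, 14 lower and 17 did not pass, while the higher genes made up 56.6% of all calls, against 39.9% with the authors' factors, and Col4a1, Col5a2 and Loxl1 turned to 0.05, 0.01 and 0.03.

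**Figure D1:**
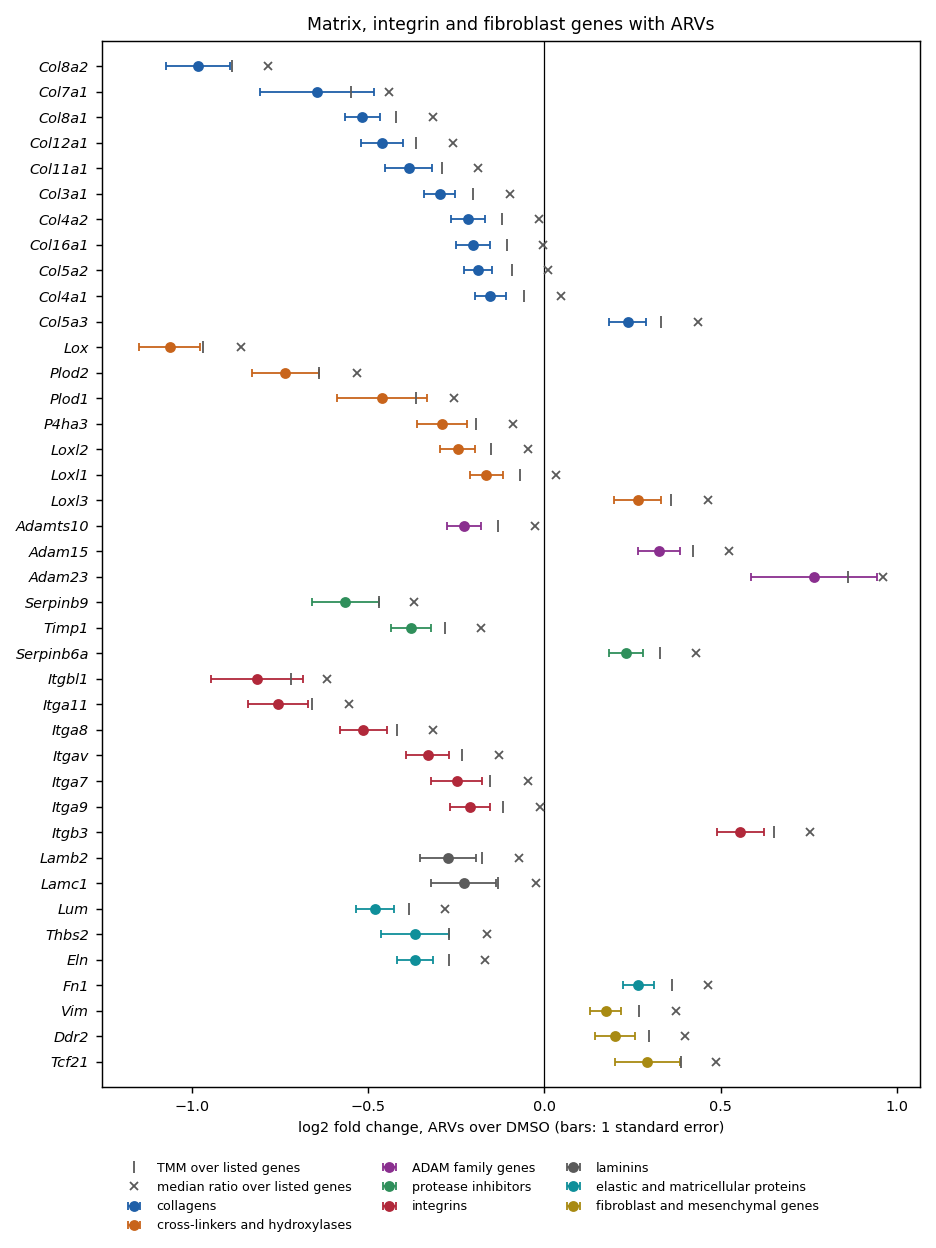
Log2 fold change of 40 of the 42 genes, ARVs over DMSO, with the authors' size factors (points, bars of 1 standard error, coloured by group), with TMM over the listed genes (vertical ticks) and with median-ratio factors (crosses). Lox (-1.06) lies lowest and Adam23 (0.77) highest, and with median-ratio factors Col4a1, Col5a2 and Loxl1 cross 0.

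Most collagen chains were lower with ARVs, and the falls were largest in Col8a2, Col7a1, Col8a1 and Col12a1. Of 11 chains, 10 were lower and 1, Col5a3, was higher, where 60.1% of all genes tested were lower. The median log2 fold change of the chains was -0.30, against -0.25 over all genes tested. Together the 11 chains took 1.19% to 1.23% of the library's reads with ARVs, against 1.39% to 1.41% with DMSO.
Col8a2 and Col8a1 encode the chains of collagen VIII, a short collagen that forms hexagonal networks in vessel walls. Col8a2 had 245, 238 and 214 normalized counts in ARVs replicates 1, 2 and 3, against 453, 451 and 475 in DMSO replicates 1, 2 and 3. The libraries of each group lay close together, with a wide gap between the groups (log2 fold change -0.98, standard error 0.09, adjusted p = 7.8e-05). Col8a1 had 3917, 3600.4 and 3706 counts with ARVs, against 5426, 5164 and 5458 with DMSO (log2 fold change -0.52, standard error 0.05, adjusted p = 9.9e-05). Both chains kept the ARVs libraries below every DMSO library, and the ratio of Col8a1 to Col8a2, in FPKM, which corrects for transcript length, was 15.6 ± 1.09 with ARVs and 11.3 ± 0.282 with DMSO (SD, n = 3 each).
Col12a1, a collagen that decorates fibrils, had 3623, 3835 and 3806 counts with ARVs, against 5497, 4770.3 and 5225 with DMSO (log2 fold change -0.46, standard error 0.06, adjusted p = 4.2e-04). The groups were apart and DMSO replicate 2 was the lowest of its group. Col7a1, the collagen of the anchoring fibrils of skin, was the scarcest of the 42 genes, at 0.637 ± 0.0962 FPKM with ARVs and 0.979 ± 0.116 FPKM with DMSO (SD, n = 3 each). Its 106, 131 and 101 counts with ARVs lay below the 182, 152 and 196 counts with DMSO (log2 fold change -0.64, standard error 0.16, adjusted p = 0.00508), with ARVs replicate 2 and DMSO replicate 2 closest to each other.
The chains with the highest FPKM had smaller falls. Col3a1, the fibrillar collagen III, stood at 818 ± 26.0 FPKM with ARVs and 986 ± 27.8 FPKM with DMSO (SD, n = 3 each), with a log2 fold change of -0.30. With DMSO it was the first of the 42 genes by level, within the spread of Vim, the second. Its neighbour on chromosome 9, Col5a2, lies on the other strand (Col3a1 at chr9:52023295-52059217, Col5a2 at chr9:52092511-52238564, release 97 coordinates of the table) and had -0.19. Col11a1, a minor chain of fibrillar collagen, had -0.38, and the fibril-associated Col16a1 had -0.20. The collagen IV chains Col4a1 and Col4a2, which form the mesh of basement membranes, had -0.15 and -0.22 and stood at ranks 3 and 4 by FPKM with DMSO. Their start sites lie 77 bases apart in GRCr8, as in the windows printed above. In release 97, used for the counts, the 2 genes lie much further apart. There Col4a1 is at chr16:83522162-83632153 (plus strand) and Col4a2 at chr16:83387364-83438561 (minus strand). The ratio of Col4a1 to Col4a2 in FPKM was 1.12 ± 0.0219 with ARVs and 1.08 ± 0.0154 with DMSO (SD, n = 3 each). Col5a3, another chain of collagen V, was the exception at 0.24 (standard error 0.05), and the ratio of Col5a3 to Col5a2 in FPKM was 0.217 ± 0.00641 with ARVs and 0.162 ± 0.00381 with DMSO.
With TMM 7 chains were lower and 3 did not pass (Col16a1, Col5a2 and Col4a1), where 50.4% of all genes tested were lower. With median-ratio factors 4 were lower and 6 did not pass, where 30.6% of all genes tested were lower, and Col4a1 and Col5a2 turned. Col8a2, Col8a1, Col12a1 and Col7a1 stayed lower and Col5a3 stayed higher with each scaling.

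**Figure D2:**
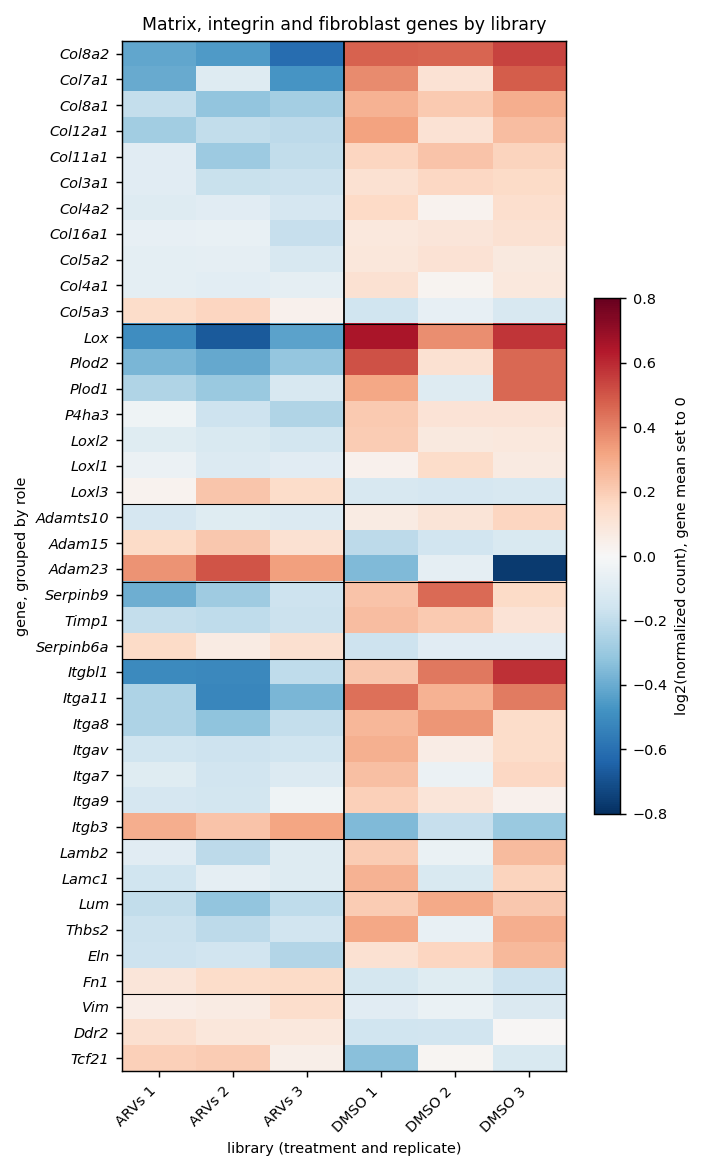
Normalized counts of 40 of the 42 genes in each library on a log2 scale, with each gene's mean over the 6 libraries set to 0 (columns: ARVs replicates 1 to 3, then DMSO replicates 1 to 3; rows grouped by role, lines between groups). Lamb2, Lamc1, Plod1, Plod2 and Thbs2 are closer to the ARVs columns in DMSO replicate 2 than in DMSO replicates 1 and 3.

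Of the enzymes that modify lysines and prolines, Lox and Plod2 had the largest falls and Loxl3 was higher. Among 7 enzymes, 6 were lower and 1 higher, with a median log2 fold change of -0.29. Among all genes tested 60.1% were lower, with a median of -0.25. Lox, lysyl oxidase itself (chr18:47500330-47577819, release 97), had 2549.6, 2254 and 2674 normalized counts in ARVs replicates 1, 2 and 3, against 5641, 4642 and 5326 in DMSO replicates 1, 2 and 3. Each ARVs library was far below each DMSO library, and Lox had the largest change of the 42 genes, 2.09-fold lower (log2 fold change -1.06, standard error 0.09, adjusted p = 4.9e-05). In FPKM, Lox stood at 51.3 ± 3.87 with ARVs and at 105 ± 8.96 with DMSO (SD, n = 3 each).
Plod2, which hydroxylates lysines in the ends of the collagen chain (chr8:99977334-100059736, release 97), had 3162, 3060.2 and 3285 counts with ARVs, against 5791, 4434 and 5590.5 with DMSO (log2 fold change -0.73, standard error 0.09, adjusted p = 4.0e-04). Its ARVs libraries lay close together, and among the DMSO libraries replicate 2 was well below the others. Plod1, which acts on the helical part, had 1625, 1566 and 1762 counts with ARVs, against 2386, 1787 and 2641 with DMSO (log2 fold change -0.46, standard error 0.13, adjusted p = 0.00782). Here DMSO replicate 2 came within 24.2 counts of ARVs replicate 3, and the 2 remaining DMSO libraries were far above.
P4ha3, a catalytic chain of prolyl 4-hydroxylase, had 783, 716 and 678 counts with ARVs, against 929, 866 and 867 with DMSO (log2 fold change -0.29, standard error 0.07, adjusted p = 0.00487). The groups did not overlap, and DMSO replicates 2 and 3 were nearly equal. Of the relatives of Lox, Loxl2 (-0.25) and Loxl1 (-0.16) were lower and Loxl3 was higher (0.26, standard error 0.07). The ratio of Loxl3 to Lox in FPKM was 0.250 ± 0.0363 with ARVs and 0.0997 ± 0.010 with DMSO, and that of Lox to Loxl1 was 0.817 ± 0.0653 with ARVs and 1.53 ± 0.207 with DMSO (SD, n = 3 each).
With TMM Loxl1 did not pass, and with median-ratio factors Plod1, P4ha3, Loxl2 and Loxl1 did not, of which Loxl1 turned.

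**Figure D3:**
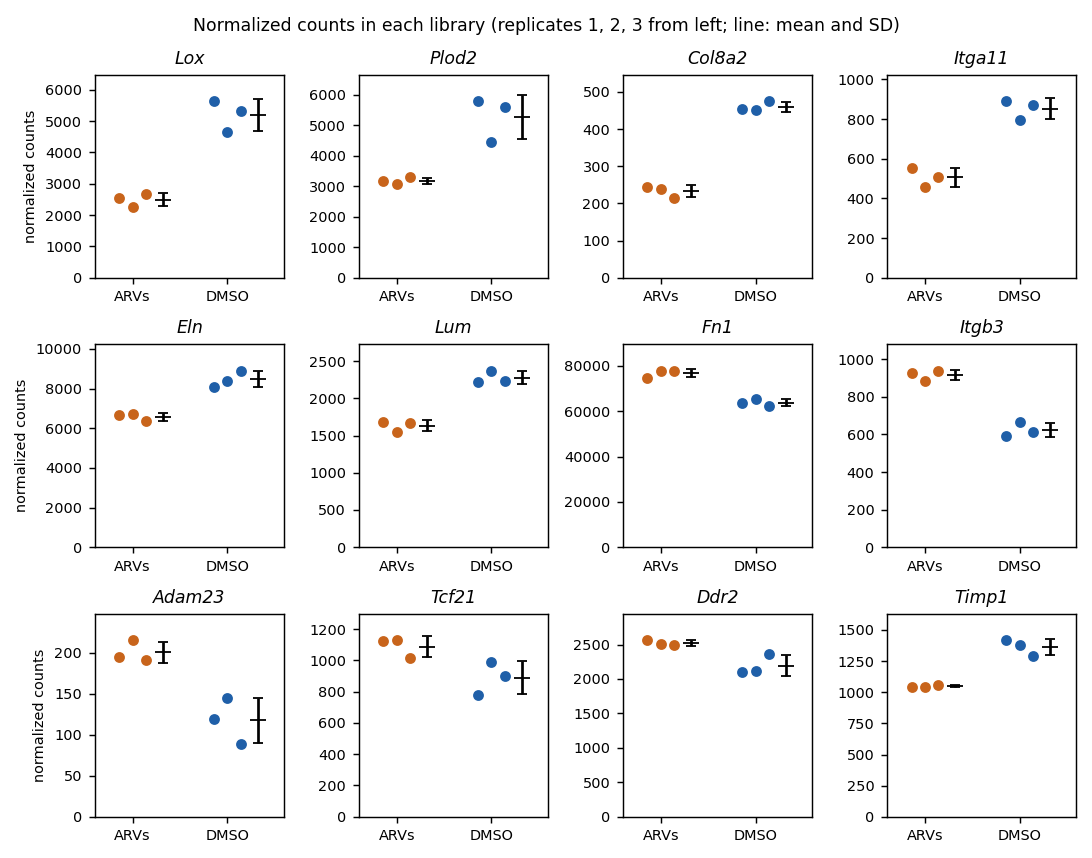
Normalized counts of 12 genes in each library, ARVs left of DMSO, with replicates 1, 2 and 3 from left to right in each group, and the mean with its SD as a bar (n = 3). In every panel the ARVs libraries lie on 1 side of the DMSO libraries, and DMSO replicate 2 is the lowest of its group for Lox, Plod2, Col8a2 and Itga11.

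Elastin, lumican and thrombospondin 2 were lower with ARVs, and fibronectin was higher. Fn1, fibronectin, a large glycoprotein on which other matrix proteins assemble, had 74645, 77552 and 77889 normalized counts in ARVs replicates 1, 2 and 3, against 63501, 65513 and 62249.9 in DMSO replicates 1, 2 and 3. All ARVs libraries were above all DMSO libraries, and the spread within each group was small beside the gap (log2 fold change 0.27, standard error 0.04, adjusted p = 0.00111). Set against Col3a1 in the same library, in FPKM, Fn1 had a ratio of 0.590 ± 0.0328 with ARVs and 0.399 ± 0.00952 with DMSO (SD, n = 3 each).
Lum, the proteoglycan lumican that binds collagen fibrils, had 1676, 1547 and 1670.1 counts with ARVs, against 2217, 2372 and 2235 with DMSO (log2 fold change -0.48, standard error 0.05, adjusted p = 1.9e-04). Its groups were well apart, with DMSO replicate 2 the highest library. Eln, the precursor of elastic fibres, had 6656, 6705 and 6341 counts with ARVs, against 8104, 8392 and 8909 with DMSO (log2 fold change -0.37, standard error 0.05, adjusted p = 5.2e-04). Thbs2, a matricellular protein of healing tissue, had 1079, 1054 and 1094 counts with ARVs, against 1508, 1167 and 1488 with DMSO (log2 fold change -0.37, standard error 0.10, adjusted p = 0.00620). For Eln every DMSO library was clear of the ARVs range, while for Thbs2 the DMSO replicate 2 value was close to it. With each scaling Lum and Eln stayed lower and Fn1 higher, while Thbs2 did not pass with median-ratio factors (adjusted p = 0.0957).

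All 3 laminin chains in the table were lower with ARVs, where 60.1% of all genes tested were lower. Lamb2, the beta 2 chain of muscle basement membranes, had 8814, 8134 and 8759.96 normalized counts in ARVs replicates 1, 2 and 3, against 10832, 9057 and 11186 in DMSO replicates 1, 2 and 3 (log2 fold change -0.27, standard error 0.08, adjusted p = 0.00943), so that its lowest DMSO library was 243 counts above its highest ARVs library.
Lamc1, the gamma 1 chain of most laminins, lies on the minus strand at chr13:70658707-70783515 (release 97) and was the only one of the 42 genes whose groups overlapped. DMSO replicate 2 fell within the ARVs range, at 23941 counts, while the ARVs libraries had 23365, 24837 and 24295 and DMSO replicates 1 and 3 had 31586 and 29434, values shown because they overlap. Lamc1 had a log2 fold change of -0.23 (adjusted p = 0.0367), and it did not pass without ARVs replicate 1, 2 or 3 or DMSO replicate 1 or 3 (adjusted p = 0.0641 to 0.148), while without DMSO replicate 2 the log2 fold change was -0.34 (adjusted p = 8.1e-06). Neither Lamb2 nor Lamc1 passed with TMM (adjusted p = 0.0517 and 0.180) or with median-ratio factors (adjusted p = 0.326 and 0.777).

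The 3 genes of the ADAM families did not share a direction, and neither did the 4 protease inhibitors. No gene with a symbol in Mmp, Fbln, Fbn, Tnc or Sparc was in the table, nor were Dcn, Bgn and Postn, which does not tell whether such a gene was unchanged or not tested by the authors. Adam23, whose metalloprotease domain lacks catalytic activity, had 195, 216 and 191 normalized counts in ARVs replicates 1, 2 and 3, against 119, 145 and 89.5 in DMSO replicates 1, 2 and 3 (log2 fold change 0.77, standard error 0.18, adjusted p = 0.00412). It had the largest rise of the 42 genes, 1.7-fold, and the DMSO libraries with the widest spread for their mean (coefficient of variation 23.5%), replicate 3 being lowest and replicate 2 highest. Adam15, a membrane metalloprotease with a disintegrin domain, had 805, 840.3 and 788 counts with ARVs, against 626, 653 and 666 with DMSO (log2 fold change 0.32, standard error 0.06, adjusted p = 0.00181). Adamts10, a secreted protease that binds fibrillin, had 1519, 1562 and 1545 counts with ARVs, against 1746, 1794 and 1875 with DMSO (log2 fold change -0.23, standard error 0.05, adjusted p = 0.00304). The groups were apart for both, with Adam15 higher and Adamts10 lower, and Adamts10 did not pass with median-ratio factors (adjusted p = 0.690).
Timp1, an inhibitor of matrix metalloproteases, had 1046, 1041 and 1062 counts with ARVs, against 1419, 1381 and 1289 with DMSO (log2 fold change -0.38, standard error 0.06, adjusted p = 7.8e-04). Every ARVs library was below every DMSO library. Serpinb9, an inhibitor of granzyme B inside the cell, had 543, 586 and 635 counts with ARVs, against 837, 977 and 794 with DMSO (log2 fold change -0.56, standard error 0.09, adjusted p = 0.00126). Serpinb6a, another intracellular serpin, had 1909, 1795 and 1871 counts with ARVs, against 1532, 1607 and 1609 with DMSO (log2 fold change 0.23, standard error 0.05, adjusted p = 0.00300). The groups did not overlap in either gene, Serpinb9 being lower and Serpinb6a higher. Both lie on chromosome 17 and belong to a family of closely related serpin genes, and reads that fit several copies may have been split between them by the counting, which is not given in the sources used here. Timp1, Serpinb9 and Serpinb6a kept their directions and calls with each scaling.

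Among the integrin genes, Itgb3 was higher with ARVs and the other 5 receptor chains were lower, where 60.1% of all genes tested were lower. Itgb3, the beta 3 chain, had 925, 885 and 940.2 normalized counts in ARVs replicates 1, 2 and 3, against 590.3, 665 and 615 in DMSO replicates 1, 2 and 3. The lowest ARVs library was 220.03 counts above the highest DMSO library (log2 fold change 0.56, standard error 0.07, adjusted p = 2.6e-04). Its partner in the fibronectin and vitronectin receptor, the alpha v chain Itgav, was lower (-0.33, standard error 0.06). The ratio of Itgb3 to Itgav in FPKM was 0.449 ± 0.0134 with ARVs and 0.245 ± 0.0338 with DMSO, and that of Itgb3 to Fn1 was 0.0483 ± 0.00202 with ARVs and 0.0395 ± 0.00176 with DMSO (SD, n = 3 each).
Itga11, a collagen receptor chain of fibroblasts, had 552, 457 and 509 counts with ARVs, against 891, 795 and 873 with DMSO (log2 fold change -0.75, standard error 0.09, adjusted p = 2.0e-04). Itga8, which forms a receptor for fibronectin and nephronectin, had 1243, 1180.2 and 1293 counts with ARVs, against 1777, 1887 and 1636 with DMSO (log2 fold change -0.51, standard error 0.07, adjusted p = 4.1e-04). In both genes the groups were well apart, with DMSO replicate 2 lowest of its group for Itga11 and highest for Itga8. Itga7, the laminin receptor chain of striated muscle, had the highest level of the integrin genes, at 75.3 ± 0.864 FPKM with ARVs and 87.8 ± 7.77 FPKM with DMSO (SD, n = 3 each), and a log2 fold change of -0.25. Itga9 had -0.21.
Itgbl1 is related to the beta chains in sequence but is a secreted protein and no receptor chain. It had 223, 222 and 276 counts with ARVs, against 368, 424 and 474 with DMSO (log2 fold change -0.81, standard error 0.13, adjusted p = 0.00102). The groups did not overlap, although ARVs replicate 3 was above the other ARVs libraries and the DMSO libraries spread over 106 counts. Without Itgbl1 the median over the 6 chains was -0.29 on the log2 scale, against -0.25 over all genes tested. With TMM Itga7 and Itga9 did not pass, and with median-ratio factors Itga7, Itga9 and Itgav did not, while Itgb3 stayed higher and Itga11, Itga8 and Itgbl1 stayed lower.

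**Figure D4:**
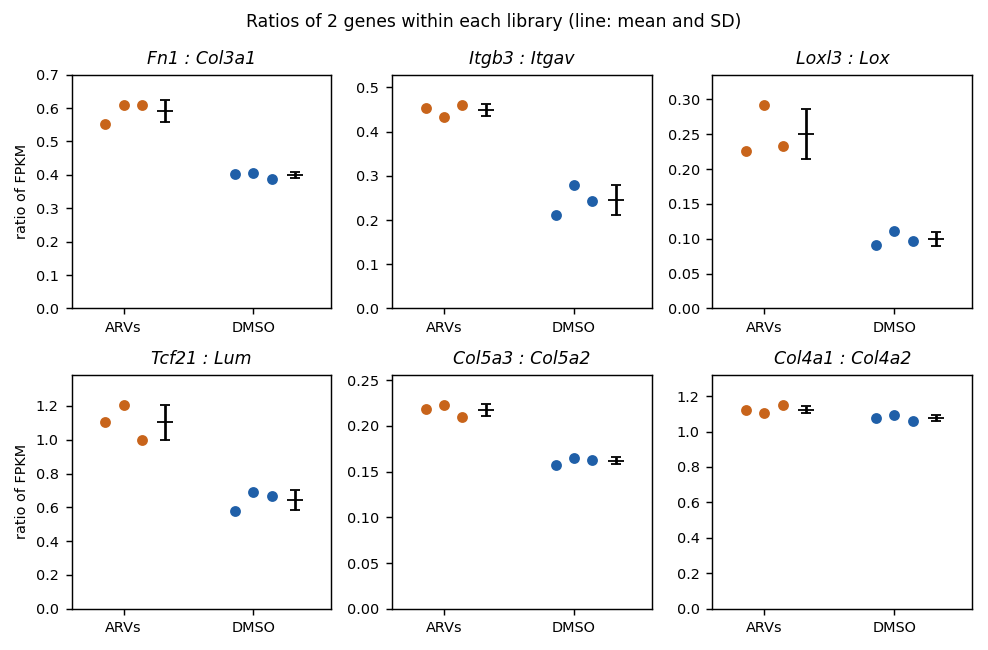
Ratios of the FPKM of 2 genes within the same library, which no scaling between libraries can move (ARVs left of DMSO, replicates 1, 2 and 3 from left to right, mean and SD as a bar, n = 3). The groups do not overlap in any of the 6 ratios, and the gap is smallest for Col4a1 to Col4a2, at 1.12 with ARVs and 1.08 with DMSO. Each of the others divides a higher gene by a lower gene, both without overlap, and so had to separate.

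In all, 11 such ratios were computed, for pairs chosen after the values were seen. In 10 of them the groups did not overlap (two-sided exact permutation test, p = 0.1 each, adjusted 0.11 over the 11), and 0.1 is the smallest p that 3 libraries against 3 can give. The exception was Lamb2 to Lamc1, at 0.145 ± 0.0103 with ARVs and 0.150 ± 0.00853 with DMSO (exact p = 0.5). For Fn1 to Col3a1, Itgb3 to Itgav, Loxl3 to Lox, Col5a3 to Col5a2 and Tcf21 to Lum, non-overlap was fixed beforehand. Each divides a gene whose ARVs libraries all lay above DMSO by a gene whose ARVs libraries all lay below. Their non-overlap and p-values are therefore no test.

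The fibroblast and mesenchymal genes Tcf21, Ddr2 and Vim were all slightly higher with ARVs. Tcf21, a transcription factor of epicardium and cardiac fibroblasts, had 1122, 1129 and 1013 normalized counts in ARVs replicates 1, 2 and 3, against 777, 991 and 902 in DMSO replicates 1, 2 and 3. The lowest ARVs library was only 22.6 counts above the highest DMSO library (log2 fold change 0.29, standard error 0.09, adjusted p = 0.0139). Without ARVs replicate 1 or 2 Tcf21 did not pass (adjusted p = 0.0513 and 0.0516). Ddr2, a receptor kinase that binds collagen, had 2564, 2503 and 2492 counts with ARVs, against 2104, 2113 and 2368 with DMSO (log2 fold change 0.20, standard error 0.06, adjusted p = 0.00840). Vim, the intermediate filament protein of mesenchymal cells, had 39354, 39782 and 41886 counts with ARVs, against 35662, 36534 and 35111 with DMSO (log2 fold change 0.17, standard error 0.04, adjusted p = 0.00558). Neither gene's groups overlapped, the DMSO libraries of Ddr2 being widened upwards by replicate 3, and all 3 genes stayed higher with each scaling.
These genes ran against other fibroblast markers. A list of 20 fibroblast markers had 8 in the table, of which 3 were higher (those above) and 5 lower. Among all genes tested 39.9% were higher and 60.1% lower. The log2 fold changes of the 5 were -0.48 for Lum, -0.30 for Col3a1, -0.26 for Thy1, -0.85 for Dpt and -0.57 for Pdgfrl. The ratio of Tcf21 to Lum in FPKM was 1.10 ± 0.102 with ARVs and 0.644 ± 0.0583 with DMSO (SD, n = 3 each). The summed normalized counts of the 8 markers were 120560 to 125085 with ARVs and 134316 to 138065 with DMSO. Most of this sum came from Col3a1 (mean 75326 with ARVs, 92538 with DMSO) and Vim (40341 and 35769), which went opposite ways. The sum therefore does not describe the markers as a whole. The label fibroblast genes thus covers genes of both directions here, and Col1a1, Col1a2, Pdgfra, Dcn and Postn were not among the listed genes.

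Matrix genes outside the 42 moved in the direction of most of the collagens. Of the genes on 5 lists of collagen processing, proteoglycans, elastic fibres, basement membrane and other matrix proteins, 18 that are not among the 42 were in the table, 17 lower and 1 higher, with a median log2 fold change of -0.44, where 60.1% of all genes tested were lower and 39.9% higher, with a median of -0.25. Nid2, which links laminin and collagen IV, had -0.95, and Dag1, the laminin receptor dystroglycan, had -0.27. Frem2 (-0.996), Matn4 (-0.90) and Dpt (-0.85) had the largest falls of the other matrix proteins. Tll1, a protease that trims procollagen, had -0.71, and the elastic fibre gene Efemp2 had -0.49. The higher gene was Efemp1, which encodes fibulin 3 (0.55, standard error 0.17). With TMM 15 were lower and 2 did not pass, where 50.4% of all genes tested were lower, and with median-ratio factors 10 were lower and 7 did not pass, of which Pcolce turned, where 30.6% of all genes tested were lower.
Markers of smooth muscle were lower with ARVs, while those of other cell types were few or went both ways. Of 12 smooth muscle and myofibroblast markers 10 were in the table, each of them lower, at a median log2 fold change of -0.50. Among all genes tested 60.1% were lower and 39.9% higher, at a median of -0.25. With TMM 7 markers were lower, where 50.4% of all genes tested were. With median-ratio factors 7 were lower, where 30.6% of all genes tested were, and Myocd and Cald1 turned. The summed normalized counts of the 10 markers were 88125 to 100102 with ARVs and 121597 to 144599 with DMSO. The largest falls among them were those of Myh11 (-1.04), Actg2 (-0.84) and Mylk (-0.76). Of 7 pericyte markers 1 was in the table, Rgs5 (-1.27), of 14 endothelial markers 2, Flt1 (-0.39) and Tek (0.57), of 19 macrophage markers 4, of which 3 were higher, and of 11 epicardial markers 1. The table held 11 of 22 cardiomyocyte markers, of which 5 were higher and 6 lower, with summed counts of 720590 to 774460 with ARVs and 804726 to 885123 with DMSO. A few genes with very high counts, which went both ways, held most of this sum. No marker in the table was at 0 in any library, and the part of these cells in the matrix values was not tested.

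DMSO replicate 2 differed from the other DMSO libraries in several of the genes that were lower with ARVs and in several of the higher ones. It was the lowest DMSO library in 19 of the 42 genes (45.2%, against 41.7% of all genes tested) and the highest in 14. Among the 31 lower genes it was the lowest in 18 (58.1%), against 54.5% of all lower genes. It was the lowest in all 3 laminins and in 6 of the 7 cross-linking and hydroxylating enzymes. Against the mean of DMSO replicates 1 and 3, its log2 difference was -0.49 for Plod1, -0.36 for Plod2, -0.36 for Thbs2, -0.35 for Lamc1, -0.31 for Col7a1 and -0.24 for Lox. This difference was slight for Loxl2 (-0.07), P4ha3 (-0.05) and Loxl3 (-0.004), of which Loxl3 was higher with ARVs. Among the 11 higher genes DMSO replicate 2 was the highest DMSO library in 7 and the lowest in 1. Over all 699 higher genes of the table it was the highest in 389 and the lowest in 158. Its log2 difference was 0.49 for Adam23 and 0.24 for Tcf21.
Hypoxia-inducible genes, a list that holds Plod1, Plod2, Lox and Loxl2, were low in the same library. Of the 12 such genes in the table DMSO replicate 2 was the lowest DMSO library in 11, and over the 7 that are not among the 42 its median log2 difference was -0.98. In the 37 genes outside that list it was the lowest in 15 and the highest in 13. Without DMSO replicate 2 all 42 genes passed in the same direction. Among all listed genes, 701 were then higher and 1050 lower, against 699 and 1052 with all libraries. Passing therefore says nothing particular of the 42. Among the 42 the change was larger in 31 and smaller in 11, by at most 1.47 times. Their median log2 fold change was -0.32. Larger and smaller changes were not counted over all genes tested, so these counts say nothing particular of the 42 either. The part of this library's state in the group differences was not tested.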

How the data were processed

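RNA of NRVCs was sequenced by the authors, who aligned the reads to release 97 of Rattus norvegicus with HISAT2 and used StringTie 1.3.3b. The program that counted reads per gene and the use of strand are not given in the sources used here. For each gene the deposited table gives the raw read count of each library, the count divided by the authors' size factor of the library (a signal), FPKM per the file headers, gene length, and the authors' own test result (a p-value, its adjusted form and a log2 fold change), which was not used. Only genes that the authors had called are listed, and 5 of the 1756 failed the filter on low counts (filterByExpr).

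Counts were tested in R 4.3.3 with edgeR 4.0.16 (glmQLFit, glmQLFTest, no covariate), with effective library sizes from the authors' size factors, since factors estimated over the listed genes would take called genes as unchanged. An adjusted p of 0.05 and a fold of 1.5 were the thresholds. On simulated data with 200 changed genes among 1755, the test found 76% of log2 changes of 0.5 and 96% of those of 1. There 2.27% of its calls were false. The simulation took its spread from the listed genes and left most of them unchanged. Its rates therefore do not carry over to the real table, where 100% of the genes tested passed.

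Alternatives were TMM, median-ratio factors, library totals from FPKM, DESeq2 1.42.0, other filters, an adjusted p of 0.01, a replicate block, and leaving out each library. Per-library values are given for Lox, Plod2, Fn1, Lum, Tcf21 and Ddr2 and for up to 4 genes of each group with the largest changes if their mean reached 50 counts and their groups did not overlap. The other lists name only genes that meet these last conditions. Some of the 42 genes are counted but not reported here by name. The genes, groups and lists were chosen with earlier results of these data known. Promoters come from RefSeq (GRCr8), matched by symbol.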

Additional observations from a re-analysis of the deposited data

How the results depend on the processing

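Scaling moved the values most. With median-ratio factors computed on the listed genes 14 of the 42 genes and 536 of all genes were lower, Col4a1 (0.046), Col5a2 (0.010) and Loxl1 (0.033) turned, and the median log2 fold changes were -0.10 for collagens, -0.090 for cross-linkers and hydroxylases, 0.52 for the 3 ADAM family genes, 0.13 for protease inhibitors, -0.13 for integrins, -0.071 for laminins, -0.17 for elastic and matricellular proteins and 0.40 for fibroblast and mesenchymal genes. With TMM they were -0.20 for collagens, -0.19 for cross-linkers and hydroxylases, 0.42 for the 3 ADAM family genes, 0.022 for protease inhibitors, -0.23 for integrins, -0.27 for elastic and matricellular proteins and 0.30 for fibroblast and mesenchymal genes. With library totals from FPKM the elastic and matricellular proteins had -0.34. TMM and median-ratio factors are both computed over genes called as changed. Library totals from FPKM raised the log2 fold changes by a median of 0.028, and which scaling is nearest to the true levels was not tested.

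Leaving out each library in turn, the medians lay between -0.38 and -0.27 for integrins, between -0.41 and -0.32 for elastic and matricellular proteins and between 0.17 and 0.26 for fibroblast and mesenchymal genes. Of the 42 genes 30 to 31 were lower with ARVs and 10 to 11 higher. Over the whole table, 985 to 1050 genes were lower and 672 to 701 higher, against 1052 and 699 with all libraries. Most listed genes thus kept their call, and among the 42 only Lamc1 and Tcf21 lost it. At an adjusted p of 0.01, 30 of the 42 were lower and 9 higher, and 932 and 626 of all genes. In 24 of the 42 genes (10 higher, 14 lower) every alternative apart from that threshold gave the same call. The same count was not made over all genes tested, so it says nothing particular of the 42. DESeq2 and the filters changed no call among the 42.

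The labels do not say whether libraries of the same replicate number were paired. After removal of the group means, same-numbered libraries correlated at 0.0901, 0.274 and 0.0991 across genes. Differently numbered libraries were not set beside them, so these values do not decide it. With the replicate number as a block 11 of the 42 genes were higher and 31 lower, and 699 and 1052 of all genes. The block thus changed no call, where 100% of the genes tested had passed without it. Among the 42, Col7a1 and Adam23 had the lowest FPKM with DMSO and the largest standard errors, 0.16 and 0.18, though Plod1, at a far higher level, had 0.13, and the part of depth was not tested.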

Other observations

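Of 32 genes of focal adhesions, which act inside the cell where integrins end, 9 were in the table, 4 higher and 5 lower, which is near the 39.9% higher and 60.1% lower of all genes tested. Fermt3, the kindlin of blood cells, averaged 138 ± 4.88 normalized counts with ARVs and 70.6 ± 12.6 with DMSO (SD, n = 3 each; log2 fold change 0.96), and Lims2, a partner of integrin-linked kinase, averaged 2679 ± 355 with ARVs and 5082 ± 1232 with DMSO, a log2 fold change of -0.92. The caveolin gene Cav2 had -0.51. With TMM 4 of the 9 were lower and 4 higher, where 50.4% of all genes tested were lower and 39.9% higher. With median-ratio factors 2 were lower and 4 higher, where 30.6% of all genes tested were lower and 39.9% higher.

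Of 28 genes of the TGF-beta and YAP pathways, which drive matrix synthesis in fibroblasts, 7 were in the table, 3 higher and 4 lower, also near the shares over all genes tested. Ccn3, a matricellular protein, averaged 325 ± 18.5 normalized counts with ARVs and 698 ± 60.9 with DMSO (SD, n = 3 each; log2 fold change -1.10), and the ligand gene Tgfb3 had -0.55. Ankrd1, a nuclear and sarcomeric protein induced by stretch, was higher (0.31). Of the matrix proteases outside the ADAM families, the serine proteases Htra3 (-0.51) and Htra1 (-0.34) were lower and the lysosomal protease Ctsl (0.20) was higher, as was Cst3, an inhibitor of such proteases (0.18).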
